A study of Saccharomyces cerevisiae with 4 samples.

Results

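The chaperone genes of budding yeast, Saccharomyces cerevisiae, were followed on 4 spotted arrays, of which each compares a pair of RNA samples as a log ratio. The set was chosen by gene name, with earlier results of these data known. It holds 39 genes out of the 6212 rows of the deposited table. Its families are the small heat shock proteins, the Hsp100 disaggregases, the Hsp70 proteins with their helpers, Hsp90 with its co-chaperones, the CCT chaperonin and the chaperones of mitochondria and the endoplasmic reticulum (ER). 2 arrays set untreated reg1::KanMX cells, in which REG1 is disrupted by a resistance cassette, against untreated wild-type cells of the same strain, labelled DBY4741. The other 2 set reg1::KanMX cells given 16 mM KOH for 10 min, which brought the medium to about pH 8.0, against reg1::KanMX cells given 16 mM KCl for 10 min. Both arms of the second comparison carry the deletion, so it shows alkalinisation in the mutant only, and wild-type cells under alkali were not analysed here. All cultures grew in YPD, a rich glucose medium of about pH 5.5, at 28 °C. Reg1 is a subunit that directs the phosphatase Glc7 against the Snf1 kinase in glucose repression.

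Chaperones bind unfolded or newly made proteins and keep them from clumping. Hsp70 proteins cycle on and off their clients with J proteins (Hsp40) as starters and nucleotide exchange factors as releasers, Hsp90 acts on near-native clients, and the CCT chaperonin folds actin and tubulin inside a closed chamber. In yeast, the transcription factor Hsf1 drives many of these genes at all times and more so under heat, while Msn2 and Msn4 add to the stress-induced ones, and the genes of ribosome-bound chaperones tend to follow those of ribosomal proteins.

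Ratios are given as log2 values, taken as such because the table does not state the base, and positive values mean higher in KOH or in reg1 cells. A mean is over the 2 arrays with its SD, and a gene is called at an adjusted p under 0.05 (limma, Benjamini-Hochberg over all rows measured on both arrays of the comparison). Whether separate cultures lie behind experiments 1 and 2 is not in the labels, so p-values measure only the spread between these arrays, which may be technical. The ratios compare total RNA, so a changed share of the RNA and a changed amount per cell cannot be told apart. REG1 itself was at -1.10 and -0.96 in the mutant, which gives the direction reg1 over wild type, while titles and channel order make KOH over KCl the likely direction of the other ratio. Were that ratio the other way round, every increase and decrease given for KOH would change places. The mutant columns are displaced against the gene names from row YKL011C to YPR204W and were read 2 rows further down there, which concerns 14 of the chaperone genes. In a window of up to 201 rows around each of these 14 genes, the pattern of missing values fitted that displacement best of 9 tried, and for the 24 genes outside the displaced and unresolved rows no displacement was best. SSA3 lies in the rows YAL067C to YBR047W, where the fault could not be assigned to one comparison, and was left out. Its deposited row reads 3.74 and 1.45 for KOH over KCl, and 1 row down there is 1 value, 1.24. HSF1, the gene of the regulator named above, and YDJ1, the main cytosolic J protein gene, were measured on no array. SSA4 and ECM10 were not measured on the KOH arrays, and BTN2, which helps to sequester misfolded proteins, had 1 value there, -1.42. This leaves 33 chaperone genes tested for KOH and 36 for reg1.

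After 10 min of KOH the chaperone genes did not move as one. Of the 33 tested, 7 were called higher and 8 lower, and 18 were not called. The disaggregase genes HSP104 and HSP78 showed the largest increases, more than 4-fold, and the mitochondrial co-chaperonin gene HSP10 the largest decrease, 2.91-fold. The 15 calls are 45.5% of the tested genes. Over all 4584 rows tested, 61.8% were called, 29.1% higher and 32.7% lower, so calls were not more frequent among chaperone genes than in the table as a whole. The median of the 33 means was -0.16, against -0.09 for all rows. When the arrays were scaled to the same spread, 5 were higher and 2 lower, in place of 7 and 8. HSP104, HSP78, SSB1, SSE2 and HSP10 were called in all 12 settings tried for single genes. Of these settings, the KOH arrays alone and the fits without a mutant array are the same test after KOH. With a KOH array left out, the spread comes from the mutant arrays, so a call can end with little change in value. FES1 was at -0.95 and -0.94 on the arrays and CCT5 at -0.75 and -0.74, while CCT2 differed more, with -0.88 and -0.39. The calls of SSB2, FES1, SIS1, APJ1, CPR6, AHA1, LHS1, CCT2 and CCT5 ended when either KOH array was left out, and that of HSP42 without experiment 1, which left 5 calls without experiment 1 and 7 without experiment 2 (among these BTN2, measured on experiment 1 alone).

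**Figure D1:**
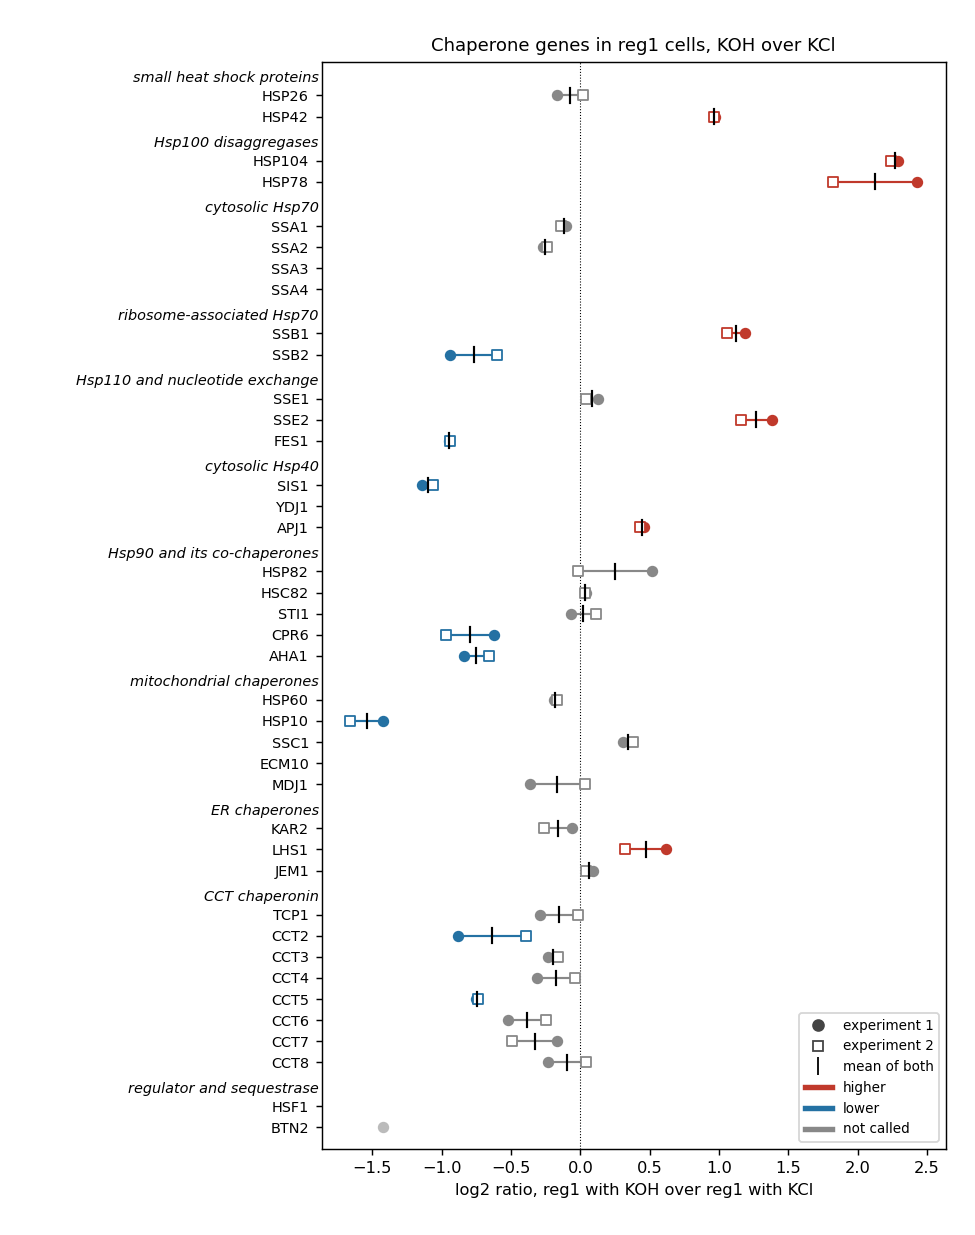
Log2 ratios of the 39 chaperone genes in reg1 cells, KOH over KCl, by family. Filled circles are experiment 1, open squares experiment 2 and black ticks their mean. Red genes were called higher, blue genes lower and grey genes were not called. HSP104 and HSP78 stand above 1.8 on both arrays, and HSP10 below -1.4 on both.

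Both disaggregase genes, whose products pull proteins out of aggregates, rose. HSP104, the cytosolic one, had 2.29 and 2.24 on the 2 arrays, a mean of 2.27 ± 0.04 (SD, n = 2) or 4.81-fold (adjusted p = 0.000237). Its mean ranked 194 among the 4584 rows, counted from the highest. HSP78, its mitochondrial counterpart, had 2.43 and 1.82, a mean of 2.13 ± 0.43 or 4.36-fold (adjusted p = 0.000576). The arrays differed more for HSP78 than for HSP104, but both of its values lay above 1.8.

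The small heat shock proteins hold unfolded proteins in a state from which Hsp104 and Hsp70 can recover them. HSP42 rose, with 0.97 and 0.96 (adjusted p = 0.00254). HSP26 had -0.17 and 0.02, a mean of -0.08 with a 95% confidence interval of -0.45 to 0.30, which includes 0 but does not reach the value of HSP42. Without experiment 1 the adjusted p of HSP42 was 0.0550, the highest over the settings tried, the lowest being 1.7e-05.

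Of the cytosolic Hsp70 genes of the SSA group, the general folding Hsp70s, only SSA1 and SSA2 were tested, and neither was called. SSA3 was left out and SSA4 was not measured after KOH, so the response of the whole group is not known. SSA1 had -0.10 and -0.14, and SSA2 had -0.27 and -0.24. The 4 values are all slightly negative and close together. The 2 sequences are nearly the same, so that the spot of one may take up RNA of the other, and this was not tested.

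The ribosome-bound Hsp70 genes SSB1 and SSB2 encode almost the same protein, which binds chains as they leave the ribosome, yet they went in opposite directions. SSB1 had 1.19 and 1.06, a mean of 1.13 ± 0.09 (n = 2) or 2.18-fold higher (adjusted p = 0.00165). SSB2 had -0.94 and -0.60, a mean of -0.77 ± 0.24 or 1.71-fold lower (adjusted p = 0.0408). The ratios of the 2 genes do not overlap on the arrays, and the difference between them was not itself tested. Whether either spot took up RNA of the other gene was not tested either. The decrease of SSB2 was no longer called with arrays scaled to the same spread (adjusted p = 0.328, the highest of the settings tried, the lowest being 0.000653). The spread in the fit is shared with the mutant arrays, where SSB2 was at 0.34 and -0.60. With the KOH arrays alone in the fit its adjusted p was 0.00826.

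Among nucleotide exchange factors, SSE2 rose and FES1 fell. SSE2, the stress-induced Hsp110 gene, had 1.38 and 1.16 (mean 1.27 ± 0.16, 2.41-fold, adjusted p = 0.00140), while its constitutive relative SSE1 had 0.13 and 0.04. The intervals of SSE2 (0.88 to 1.66) and SSE1 (-0.27 to 0.44) do not meet. FES1, which releases nucleotide from cytosolic Hsp70, had -0.95 and -0.94 (adjusted p = 0.00299), the closest pair of arrays among the called genes together with those of HSP42 and CCT5.

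The measured J protein genes also parted. SIS1, an essential J protein that works with Ssa proteins in disaggregation and nuclear quality control, fell, with -1.14 and -1.06 (2.14-fold lower, adjusted p = 0.0119). APJ1, a J protein of low abundance, had 0.46 and 0.43 (adjusted p = 0.0445). The values of APJ1 are alike, but the change is 1.36-fold. Over the settings tried the adjusted p of APJ1 ran between 0.0188 and 0.298.

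The genes of Hsp90 itself were not called, and 2 of its 3 co-chaperone genes here fell, beside 32.7% of all rows called lower. HSC82, the constitutive Hsp90 gene, had 0.04 and 0.03, and HSP82, the heat-induced copy, had 0.52 and -0.02. HSP82 was therefore positive on 1 array and near 0 on the other, with an interval of -0.25 to 0.75. STI1, which links Hsp70 to Hsp90, had -0.07 and 0.11. CPR6, a prolyl isomerase that binds Hsp90, fell, with -0.62 and -0.97 (adjusted p = 0.00744). AHA1, which stimulates the ATPase of Hsp90, had -0.84 and -0.66 (adjusted p = 0.00744). With arrays scaled to the same spread CPR6 and AHA1 were no longer called (limma, adjusted p = 0.0650 and 0.0743). HSP82 and HSC82 are near-identical as well, so the same limit holds for their spots.

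**Figure D2:**
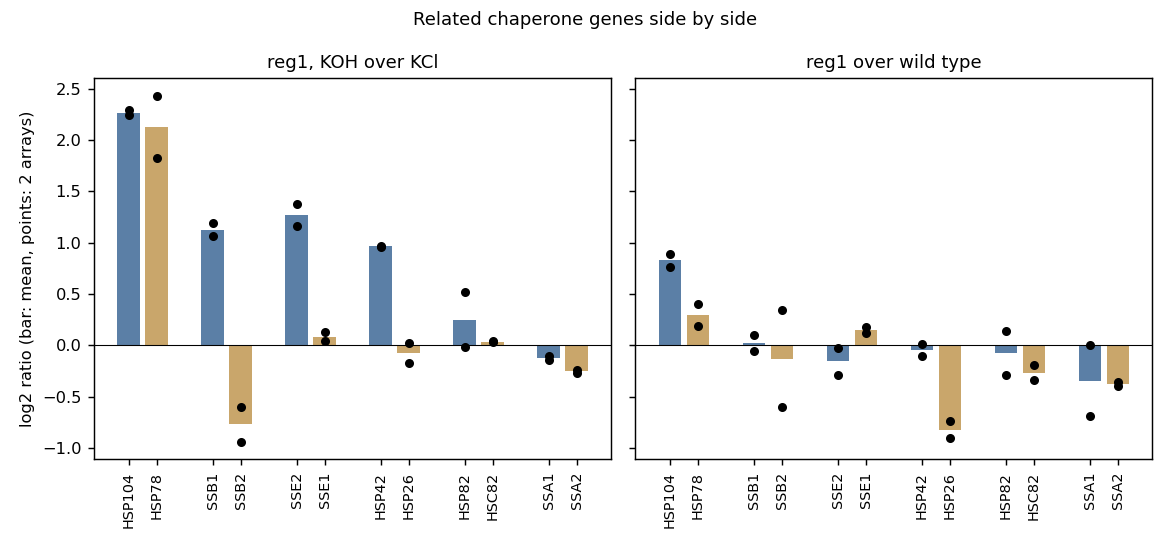
Mean log2 ratios (bars, from 0) and values of the 2 arrays (points) for related chaperone genes, KOH over KCl on the left and reg1 over wild type on the right. After KOH, SSB1 and SSB2 lie on opposite sides of 0, and SSE2 and HSP42 stand above SSE1 and HSP26. HSP82, HSC82, SSA1 and SSA2 were not called there, with HSP82 at 0.52 and -0.02. In reg1 over wild type SSE2 (mean -0.16) lies below SSE1 (mean 0.15).

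In mitochondria, the partners of the chaperonin parted. HSP10, which caps the Hsp60 chamber, had -1.42 and -1.66, a mean of -1.54 ± 0.17 (adjusted p = 0.000678). HSP60, whose product forms that chamber, had -0.19 and -0.17, and its interval (-0.58 to 0.22) does not meet that of HSP10 (-1.91 to -1.17). SSC1, the matrix Hsp70 that pulls in and folds imported proteins, had 0.31 and 0.38 and was not called (adjusted p = 0.101). MDJ1, its J protein, had -0.36 and 0.03, of opposite sign on the 2 arrays.

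Of the ER chaperone genes 1 of 3 was called, beside 61.8% of all rows. LHS1, an Hsp110-like protein of the ER that acts as exchange factor for Kar2, had 0.62 and 0.32 (mean 0.47 ± 0.21, 1.39-fold, adjusted p = 0.0403). KAR2, the ER Hsp70 known as BiP, had -0.06 and -0.26, and JEM1, an ER J protein, had 0.09 and 0.04. Over the settings tried the adjusted p of LHS1 ran between 0.0286 and 0.412, the highest being that without experiment 1.

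The 8 subunit genes of CCT all had means below 0, between -0.75 and -0.10, as had 2467 of all 4584 rows. Their median was -0.26, against -0.09 for all rows. Of the subunit genes, CCT5, with -0.75 and -0.74, was called (adjusted p = 0.00914), and so was CCT2, with -0.88 and -0.39 (adjusted p = 0.0227). These 2 of 8 stand beside 32.7% of all rows called lower. The other 6, TCP1, CCT3, CCT4, CCT6, CCT7 and CCT8, were not called. CCT6 and CCT7 had means of -0.39 and -0.33, and CCT8 was at -0.23 and 0.04, the only subunit of opposite sign on the arrays. Since the subunits form 1 complex, they are not independent of each other.

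Further lists of folding factors had lower medians than the chaperone genes. Their counts are to be read beside the 32.7% of all rows called lower and the 29.1% called higher. The lists, too, were chosen with earlier results of these data known. Prefoldin hands actin and tubulin to CCT, and phosducin-like proteins assist in that folding. Of 4 genes of these kinds tested here, all fell (PAC10, YKE2, GIM5 and PLP2), with a median of -1.63. PAC10 had -1.78 and -2.04, and YKE2 had -1.77 and -1.87. Of 9 further Hsp90 co-chaperone genes 7 fell and none rose (median -1.09), led by CNS1, with -2.38 and -2.58, and HCH1, with -1.13 and -1.51. Of the ribosome-associated complex and the nascent chain-associated complex (NAC), which act with the Ssb proteins at the ribosome, 4 of 5 genes fell. These were the NAC genes EGD1 (-1.85 and -1.87) and EGD2 (-1.43 and -1.48), and ZUO1 (mean -0.79) and SSZ1 (mean -0.76), the J protein and Hsp70-like genes of the other complex. Beside these stand the cytosolic ribosomal protein genes, of which 117 of 118 fell, with a median of -1.67. SSB2 was called in the direction of these genes and SSB1 in the opposite one. Of 5 other J proteins and Hsp70 cofactors 3 fell (SNL1, DJP1 and CAJ1) and none rose, led by SNL1, an exchange factor gene (-1.45 and -1.04).

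**Figure D3:**
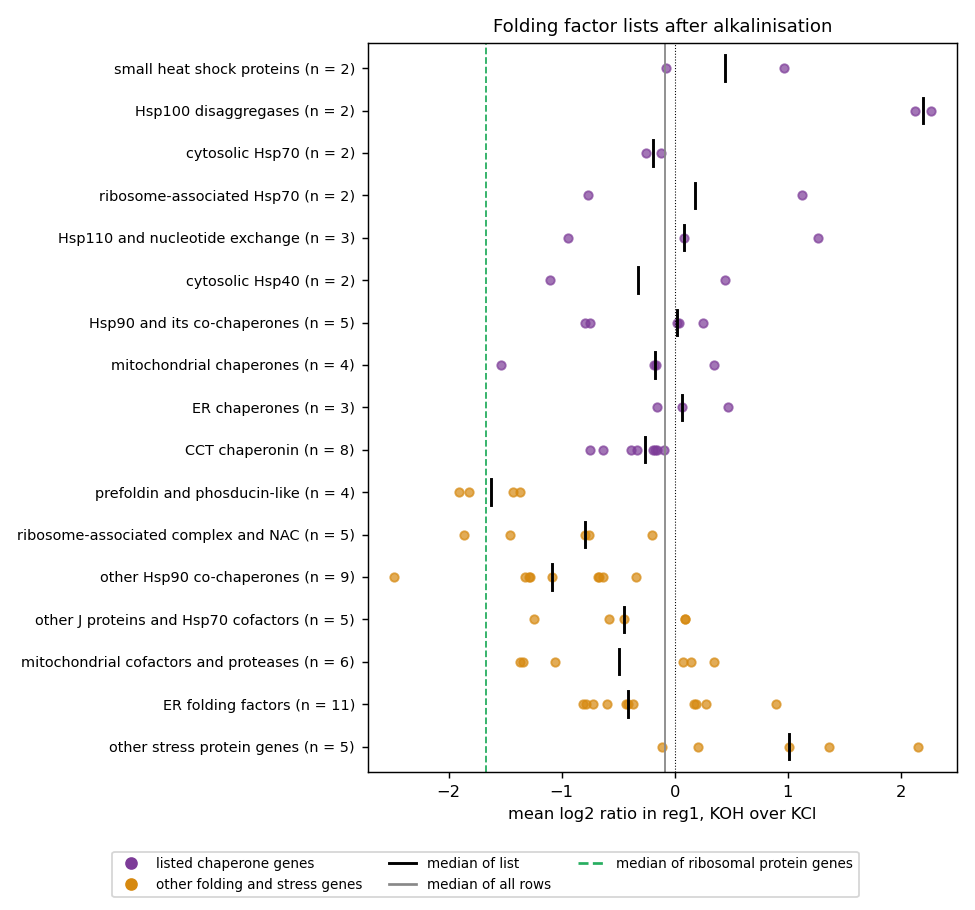
Mean log2 ratios, KOH over KCl in reg1 cells, of each tested gene (points) by list, with the median of each list (black ticks), of all rows (grey line, -0.09) and of ribosomal protein genes (green dashed line, -1.67). The median of the disaggregase genes lies farthest right, and prefoldin and further Hsp90 co-chaperone genes lie left of 0.

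In untreated reg1 cells few chaperone genes differed from wild type by the test. Of 36 tested, HSP104 was called higher and HSP26 lower, and 34 were not called. The 2 calls are 5.56% of the tested genes, against 7.16% of all 4765 rows (5.20% higher and 1.95% lower), so this is no more than the background. In all, 6 genes had an unadjusted p under 0.05, beside 1191 of the 4765 rows, and no chaperone gene reached 2-fold on both arrays. The median of the 36 means was -0.10, against -0.05 for all rows.

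**Figure D4:**
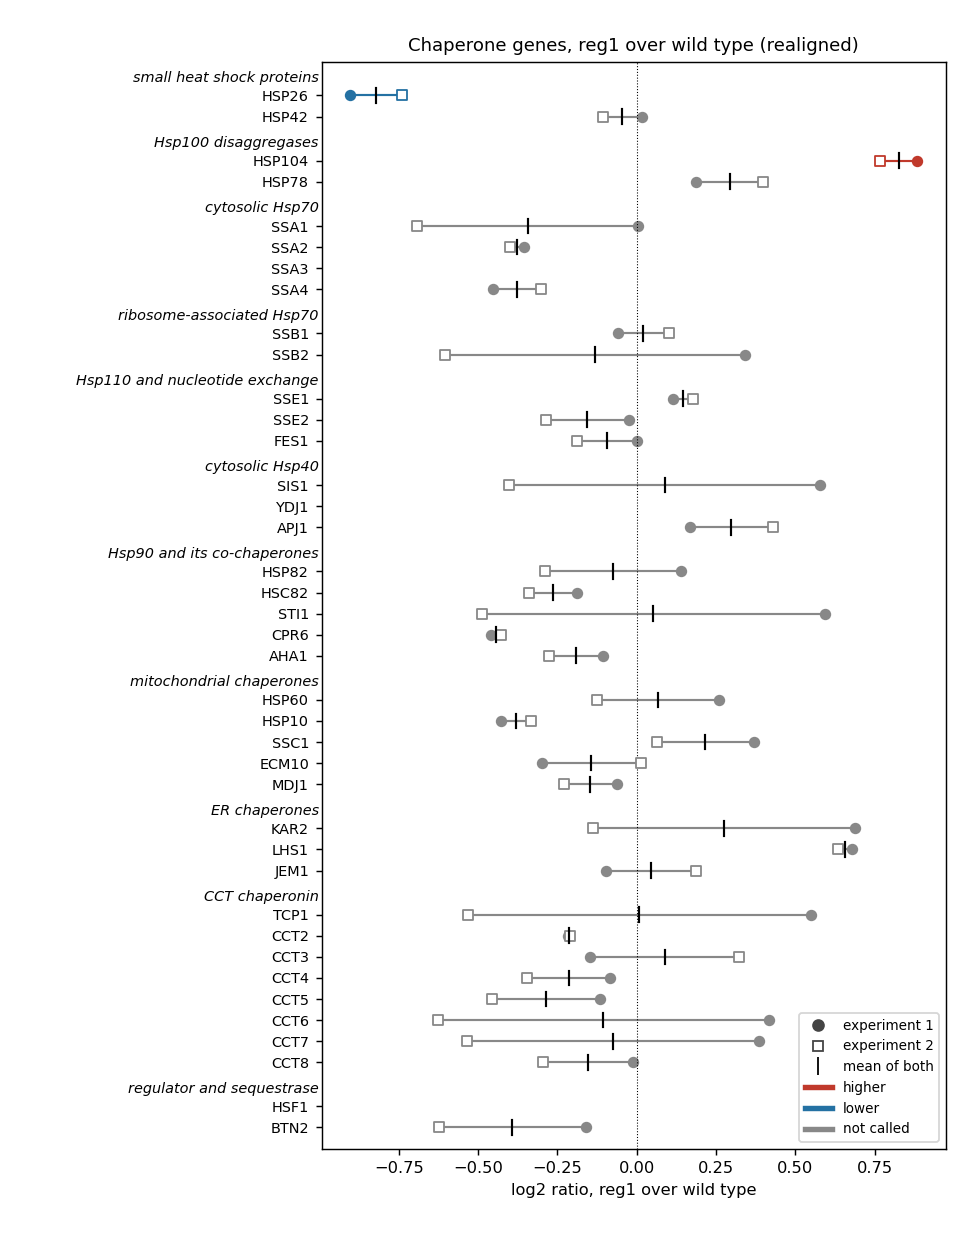
Log2 ratios of the 39 chaperone genes, reg1 over wild type, by family, with the displaced mutant values read 2 rows further down. Symbols and colours are those of the plot of KOH over KCl. HSP104 is the one gene called higher and HSP26 the one called lower, and lines that cross 0 mark genes of opposite sign on the 2 arrays.

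HSP104 had 0.89 and 0.77, a mean of 0.83 ± 0.08 (SD, n = 2) or 1.77-fold higher in reg1 cells (adjusted p = 0.0287). It lies in the displaced rows. Its deposited row holds -0.38, which is the mean of SSA2 once realigned and not a second value of HSP104. HSP26 had -0.90 and -0.74, a mean of -0.82 ± 0.12 or 1.77-fold lower in reg1 cells (adjusted p = 0.0330). The arrays agree for both genes, which moved by equal factors in opposite directions. Both calls rest on the spread shared with the KOH arrays. These lay closer together, with a median gap between the arrays of 0.18 over all rows, against 0.32 for the mutant arrays. For HSP104 itself the gap was 0.05 on the KOH arrays and 0.12 on the mutant arrays. For HSP26 it was 0.19 and 0.16, so the KOH arrays were not the closer ones there. Data were simulated with the same spread for all rows of a comparison, unequal between the comparisons as measured. There the shared spread gave more false calls in reg1 over wild type than the threshold allows. Adjusted p-values of that comparison are therefore likely too small, though spreads of real rows differ. With the mutant arrays alone neither gene was called (adjusted p = 0.118 for HSP104 and 0.120 for HSP26). Over the settings adjusted p ran from 0.00143 to 0.173 for HSP104 and from 0.00150 to 0.120 for HSP26. The 0.173 is that of the deposited row, which holds the values of SSA2. Leaving out either mutant array also ended both calls.

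No Hsp70 gene of the cytosol was called in reg1 over wild type. SSA2 had -0.36 and -0.40, SSA4 had -0.45 and -0.30, and SSA1 had 0.01 and -0.69. The values of SSA2 and SSA4 are negative on both arrays, while SSA1 is lower on experiment 2 only. SSB1 had -0.06 and 0.10, and SSB2 had 0.34 and -0.60. SSB2 was thus of opposite sign on the 2 arrays, as were SIS1 (0.58 and -0.40) and STI1 (0.59 and -0.49).

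HSP78 had 0.19 and 0.40, HSP42 had 0.02 and -0.11, and SSE2 had -0.03 and -0.29. These 3 genes, of which each rose after KOH, were not called in the untreated mutant, and their intervals include 0. Of the Hsp110 and exchange factor genes, SSE1 had 0.12 and 0.18 and FES1 had 0.00 and -0.19. APJ1 had 0.17 and 0.43.

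Hsp90 and its partners were not called either. HSC82 had -0.19 and -0.34, HSP82 had 0.14 and -0.29, CPR6 had -0.46 and -0.43, and AHA1 had -0.11 and -0.28. CPR6 was the lowest of this family, with close arrays and an unadjusted p under 0.05 (adjusted p = 0.160). BTN2 had -0.16 and -0.63.

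Of the organelle chaperones, LHS1 came nearest to a call, with 0.68 and 0.63 (mean 0.66 ± 0.03, adjusted p = 0.0665). The other ER genes were KAR2, with 0.69 and -0.14, and JEM1, with -0.10 and 0.19. In mitochondria, HSP10 had -0.43 and -0.33, SSC1 0.37 and 0.06, HSP60 0.26 and -0.12, MDJ1 -0.06 and -0.23, and ECM10, a second matrix Hsp70, -0.30 and 0.01. HSP10 and LHS1 were alike on both arrays, while KAR2, JEM1, HSP60 and ECM10 changed sign.

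The CCT genes showed how far the mutant arrays differed. TCP1 had 0.55 and -0.53, CCT6 had 0.42 and -0.63, and CCT7 had 0.39 and -0.54. CCT3 had -0.15 and 0.32. These 4 of 8 subunits had opposite signs on the 2 arrays, and no subunit was called. Over the whole set 16 of 36 chaperone genes had opposite signs (44.4%), against 37.8% of all rows. Experiment 1, with reg1 RNA in Cy5, lay above experiment 2, with reg1 RNA in Cy3, for 24 of the 36 genes and for 55.4% of all rows. Dye and experiment number cannot be told apart on these 2 arrays. On the KOH arrays 5 of 33 chaperone genes had opposite signs (15.2%), against 8.27% of all rows.

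**Figure D5:**
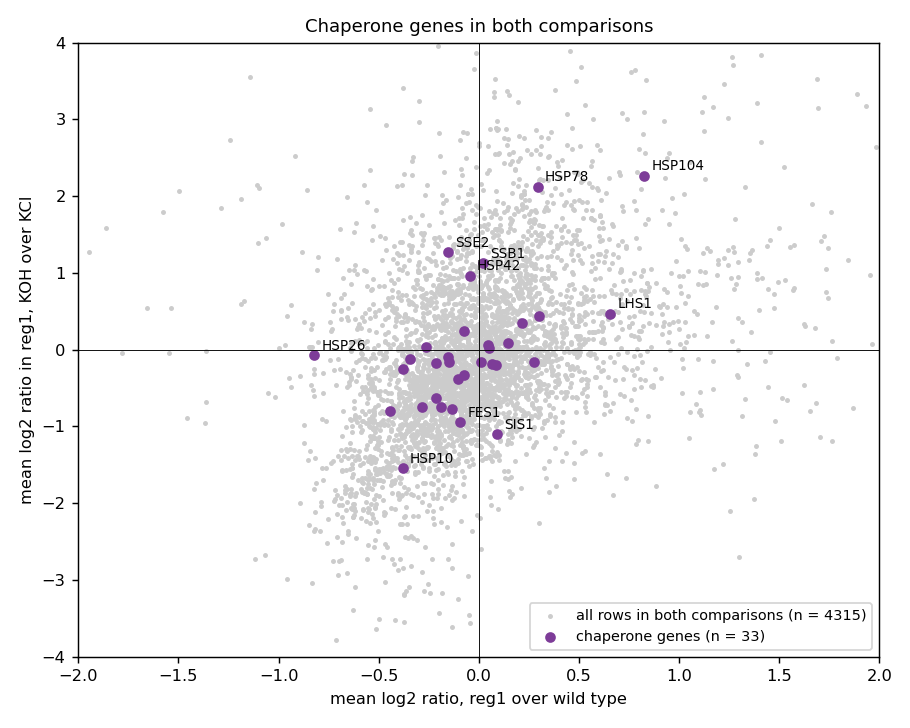
Mean log2 ratio of KOH over KCl in reg1 cells (vertical) against that of reg1 over wild type (horizontal) for 33 chaperone genes (purple) and all 4315 rows measured in both (grey), of which 61 lie beyond the axes. HSP104 is high in both comparisons, HSP26 is low in reg1 over wild type and near 0 after KOH, and most other chaperone genes are spread along the vertical axis.

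The 2 comparisons share the mutant strain but no array. The median of the absolute means was 0.16 in reg1 over wild type and 0.35 in KOH over KCl for the 33 chaperone genes tested in both, and 0.24 and 0.68 for all 4315 such rows. For 23 of the 33 the KOH value was the larger in size, and for 3366 of the 4315 rows. The signs were the same for 24 of 33 chaperone genes (72.7%) and for 64.9% of all rows. With the KOH ratio turned round, these would be the genes and rows of opposite sign. HSP104 was the only chaperone gene called in both, higher each time. HSP26, lower in reg1, was not called after KOH. At 2-fold or more on both arrays, 4 chaperone genes were higher after KOH (HSP104, HSP78, SSB1 and SSE2) and 2 lower (HSP10 and SIS1), against 14.9% and 13.4% of all rows.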

How the data were processed

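The authors deposited 1 table of log ratios per open reading frame and array, used here as log2 values. Per the labels, small spots and spots weak in both dyes were left out, and dyes were swapped within each comparison. The log base, scanner, background correction and normalization were not given in the sources used here. Between 4746 and 5190 rows were measured per array, and the number of arrays limits the precision. Of 6212 rows, 5662 were matched to a symbol by locus tag (RefSeq R64 table). All 39 chaperone genes matched.

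Mutant values of rows YKL011C to YPR204W were read 2 rows further down, and 199 rows (YAL067C to YBR047W) were left out. Each comparison's mean was tested against 0 with limma 3.58.1 (R 4.3.3; lmFit, eBayes), all 4 arrays in 1 fit, over rows measured on both arrays, with Benjamini-Hochberg adjustment. The fit was tested on simulated data with the same spread for all rows of a comparison. It kept to the threshold with equal spreads but made too many false calls in reg1 over wild type with the average spreads as measured. Alternatives covered register, centring, scaling, samples in the fit, dye, replicate block, rows tested, threshold and left-out arrays. The members and lists were chosen with earlier results of these data known. Named genes are all members, and the 2 called genes with the largest means of each other list, besides genes that make up a count of 5 or fewer, named after their values were seen. A single gene that belongs to these other lists was left out of them and is not reported here.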

Additional observations from a re-analysis of the deposited data

How the results depend on the processing

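The number of chaperone genes called in reg1 over wild type was 2. It was 1 with the mutant columns at the deposited rows, where HSP104 reversed to -0.38, and 0 with the mutant arrays alone in the fit, at an adjusted p under 0.01, at 2-fold on both arrays without a model, and, by limma, without any 1 of the 4 arrays (range 0 to 0; at an unadjusted p under 0.05 in the fit of all arrays there were 6). Leaving out a KOH array leaves the spread to the mutant arrays by construction. The reversal of HSP104 is a change of row only, since -0.38 is the mean that SSA2 holds once realigned. With a dye term, with arrays scaled to the same spread and over rows measured on all 4 arrays it was 3, and 2 in the other settings, the replicate block included. After KOH the number was 15, and 7 with arrays scaled to the same spread, 6 at 2-fold on both arrays, and 5 to 17 when 1 array was left out: 5 without KOH experiment 1 (4 higher, 1 lower), 7 without KOH experiment 2 (5 and 2), and 17 without either mutant array. A lone array was assumed to vary like the other comparison. At an adjusted p under 0.01 the number was 10, with a dye term 14, and with the KOH arrays alone in the fit 17. Leaving out a mutant array leaves the spread to the KOH arrays, so it gives that same fit by construction. The replicate block gave 13, without APJ1 and LHS1; deviations of same-numbered arrays had r = -0.09 over 4315 rows and -0.23 over the 33 chaperone genes, so the numbers were not taken as pairs. The crossed pairing is the fit with the dye term. Over all rows, calls in reg1 over wild type were 341, and 601 after scaling, 801 with a dye term and 153 with the mutant arrays alone. After KOH they were 2832, and 1238 after scaling. HSP104, HSP78, SSB1, SSE2 and HSP10 kept their KOH call and direction in all 12 settings tried for single genes, some of which are thus the same fit. The cause of these differences was not tested. The signal over background of the spots is unknown.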

Other observations

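Of 5 measured stress protein genes outside the chaperone families, 3 rose after KOH and none fell (median 1.02, the mean of HSP12), beside 29.1% of all rows called higher and 32.7% lower. UBI4, the polyubiquitin gene, had 2.16 and 2.14, and HSP150, a cell wall protein gene, had 1.26 and 1.48. In reg1 over wild type HSP12, a membrane-protecting stress protein gene, had 0.85 and 1.41. HSP30, a stress protein gene of the plasma membrane, had -1.19 and -1.03. Both were called (adjusted p = 0.0279 and 0.0268, limma, with the shared spread that makes these too small). They were the only calls among 6 such genes tested there, beside 7.16% of all rows called.

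Folding factor genes of organelles were called no more often than all rows, of which 61.8% were called after KOH. Of 11 ER folding factor genes 1 rose and 3 fell (median -0.42), namely MPD1, an ER thiol oxidoreductase gene, with 0.91 and 0.88, and on the other side ERO1, the ER oxidase gene, with -0.70 and -0.92, MPD2 and SCJ1. Of 6 mitochondrial cofactor genes 3 fell and none rose, namely the import motor genes PAM18 (-1.43 and -1.31) and PAM16 (-1.46 and -1.23) and MGE1, the exchange factor gene of Ssc1 (mean -1.06). In reg1 over wild type no gene of these 2 lists was called (limma; 2 of 11 and 0 of 6 had an unadjusted p under 0.05). The 6 prefoldin and phosducin-like genes tested here had means below 0 in reg1 over wild type, as had 2634 of all 4765 rows. Their median was -0.63 against -0.05 for all rows. None was called (limma; 4 had an unadjusted p under 0.05, beside 1191 of all 4765 rows). The cytosolic ribosomal protein genes lay below 0 there as well, 120 of 120, with a median of -0.55. Of these, 11 were called lower (9.17%), beside 1.95% of all rows, with the shared spread that likely makes adjusted p-values there too small.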
